A study of Homo sapiens with 15 samples.

Results

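The genes described here are 40 genes of glycolysis and of the response to low oxygen, out of 58735 genes in the count table. They were taken by symbol, and all 40 were found: 17 glycolytic enzymes, 4 regulators of glycolytic flux, 4 glucose and lactate transporters, 13 other hypoxia-induced genes and the 2 HIF alpha subunits HIF1A and EPAS1. They were compared over 15 cell line-derived xenograft (CDX) tumors, 5 each of the cholangiocarcinoma (bile duct cancer) cell lines HuCC-A1, EGI-1 and HuCC-T1. EGI-1 is an extrahepatic and the other lines are intrahepatic cholangiocarcinoma lines, so each model is 1 cell line and a difference between models cannot be told apart from a difference between lines. All mice were of the immunodeficient NRG strain and got PBS into the peritoneum weekly, for 6 weeks with HuCC-A1 tumors and 4 weeks with EGI-1 tumors. The duration for HuCC-T1 is not given. Between HuCC-A1 and EGI-1 the duration went with the line, so the parts of line and duration in a difference cannot be told apart. The series asked what marks tumors that respond more or less to an antibody against claudin-1, and none of the tumors analysed here had received it.

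Glycolysis splits glucose into pyruvate, which lactate dehydrogenase turns into lactate or which enters the mitochondria through pyruvate dehydrogenase. When oxygen is short, HIF alpha subunits escape the prolyl hydroxylases that mark them for destruction, pair with ARNT and switch on genes that hold a short core motif, among them glucose transporters, most glycolytic enzymes, the kinases that close pyruvate dehydrogenase, and genes for pH control, mitophagy and feedback on HIF itself. HIF alpha is set mainly by protein stability, so the mRNA of HIF1A or EPAS1 is not a measure of HIF activity. Glycolytic genes are also driven by other factors, such as MYC and growth factor signaling, and the enzymes were therefore set beside the other hypoxia-induced genes.

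Start-site sequences are shown for 4 genes whose levels parted the models, as described further on: the carbonic anhydrases CA9 and CA12, and the lactate dehydrogenase subunits LDHA and LDHB. Each runs 5′ to 3′ on the strand of the gene, from 250 bases before to 50 after a start site in RefSeq (GRCh38.p14), and capitals mark the HIF core motif, ACGTG or GCGTG, on either strand.
CA9 promoter, chr9:35673678-35673977, plus strand: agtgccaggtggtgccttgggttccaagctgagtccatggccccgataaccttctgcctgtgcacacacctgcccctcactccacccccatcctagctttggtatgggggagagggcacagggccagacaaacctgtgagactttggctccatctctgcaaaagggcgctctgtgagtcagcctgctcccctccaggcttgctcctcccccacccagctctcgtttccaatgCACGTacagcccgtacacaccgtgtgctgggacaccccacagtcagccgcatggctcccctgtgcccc
CA12 promoter, chr15:63381797-63382096, minus strand: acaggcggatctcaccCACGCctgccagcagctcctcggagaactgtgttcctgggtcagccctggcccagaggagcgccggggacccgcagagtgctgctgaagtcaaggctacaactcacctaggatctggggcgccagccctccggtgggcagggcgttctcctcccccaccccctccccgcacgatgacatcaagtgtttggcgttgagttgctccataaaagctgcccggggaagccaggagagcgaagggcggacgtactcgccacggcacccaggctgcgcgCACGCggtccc
LDHA promoter, chr11:18394313-18394612, plus strand: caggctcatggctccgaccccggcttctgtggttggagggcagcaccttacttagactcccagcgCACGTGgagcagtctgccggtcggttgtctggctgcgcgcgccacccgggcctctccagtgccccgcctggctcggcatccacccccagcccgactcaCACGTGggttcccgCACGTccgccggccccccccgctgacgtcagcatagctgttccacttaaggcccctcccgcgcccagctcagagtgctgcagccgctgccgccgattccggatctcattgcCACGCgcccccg
LDHB promoter, chr12:21657793-21658092, minus strand: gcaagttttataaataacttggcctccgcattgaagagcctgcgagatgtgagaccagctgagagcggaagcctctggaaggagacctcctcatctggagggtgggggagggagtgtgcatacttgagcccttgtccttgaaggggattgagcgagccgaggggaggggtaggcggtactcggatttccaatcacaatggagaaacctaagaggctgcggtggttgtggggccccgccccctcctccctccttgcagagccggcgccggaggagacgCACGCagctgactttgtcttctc
The LDHA window shown held 6 matches, of which 2 pairs were the same palindrome read on both strands, CA12 held 2, and CA9 and LDHB held 1 each. Another LDHA window, chr11:18396101-18396400, is not shown and held 1. Of the 40 genes, 34 had at least 1 such window, and 32 of these 34 held the core in at least 1 window, as did 14318 of 27305 genes in all (52.4%). Several genes had more than 1 window, and by window the core was in 44 of 64 (68.8%) against 17012 of 35116 (48.4%). A match is only a run of letters, and no binding was measured. Windows of HILPDA, NDRG1, NDUFA4L2, SLC16A1, SLC2A3 and BNIP3L were not analysed here.

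Depth was 20001412 to 33585265 counts in HuCC-A1, 34239460 to 44067878 in EGI-1 and 26163778 to 33984103 in HuCC-T1 tumors, and the 40 genes took 0.834% to 1.13%, 1.59% to 2.25% and 1.56% to 2.08% of them. Levels are CPM, each count divided by its library's TMM-adjusted size, and differences are log2 fold changes from edgeR's quasi-likelihood test with Benjamini-Hochberg adjusted p over 21019 genes. All 8 biliary and epithelial markers were at 1 CPM or more on average in each model. In bulk RNA, fewer cells of a type and less RNA per cell cannot be told apart. The lines are human and the hosts mice, so the sums of human stromal markers below are no direct measure of the number of stromal cells. The summed level of 9 fibroblast markers was 424 to 949 CPM in HuCC-A1, 74.5 to 127 in EGI-1 and 99.9 to 517 in HuCC-T1 tumors, and that of 7 endothelial markers was 16.0 to 31.6, 3.48 to 4.48 and 13.5 to 25.3 CPM. The fibroblast sum rested mostly on 1 gene a model, COL3A1 in HuCC-A1 (mean 638 CPM) and COL1A1 in EGI-1 (84.5) and HuCC-T1 (375). COL1A1 itself was lower in HuCC-A1, at 17.5 CPM, than in EGI-1 (log2 difference -2.27). Of 7 fibroblast markers tested in that comparison, 4 were higher and 1 lower in HuCC-A1, where all genes gave 29.4% and 26.0%. Of the fibroblast and endothelial markers, the endothelial KDR had no count in HuCC-T1 tumors, and every other had at least 1 count in each model. Leukocyte markers summed to at most 54.9 CPM (AIF1 without a count in HuCC-A1 and HuCC-T1), red cell markers to at most 1.58 CPM (HBA1 and HBA2 without a count in EGI-1 and HuCC-T1, HBB in EGI-1), adipocyte and muscle markers to at most 7.62 CPM (ADIPOQ without a count in any tumor, MYH2 in EGI-1 and HuCC-T1, MYH1 in HuCC-T1) and hepatocyte markers to at most 2.27 CPM (APOB without a count in EGI-1). Mitochondrial genes took 4.5% to 11.3% of counts in HuCC-A1, 3.94% to 5.64% in EGI-1 and 5.97% to 8.36% in HuCC-T1. The part of these in the results below was not tested, and whether mouse reads were removed is not given in the sources used here.

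HuCC-A1 tumors stood below both other models over most of the set. Against EGI-1 tumors 29 of the 40 genes were lower, 5 (PFKM, LDHB, CA12, NDUFA4L2 and EPAS1) were higher and 6 were not called, with a median log2 difference of -1.12. Of all genes tested, 26.0% were called lower and 29.4% higher in that comparison, and the median over all genes was 0.058. Counting differences of at least 2-fold, 21 members were lower and 5 higher, where all genes gave 16.2% and 20.3%. Against HuCC-T1 tumors 26 members were lower, 3 (LDHB, SLC16A1 and EPAS1) higher and 11 not called (median -0.89), over a background of 27.2% lower and 29.1% higher (median 0.048). At 2-fold or more these were 18 and 3 members, over 17.6% and 19.1% of all genes. HuCC-T1 against EGI-1 was even, with 11 members higher, 11 lower and 18 not called (median 0.12, all genes 0.060) where 27.3% of all genes were higher and 25.0% lower. At least 2-fold, 7 members were higher and 4 lower, against 17.5% and 15.2% of genes. The 3 comparisons share tumors, so each was read on its own.

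**Figure D1:**
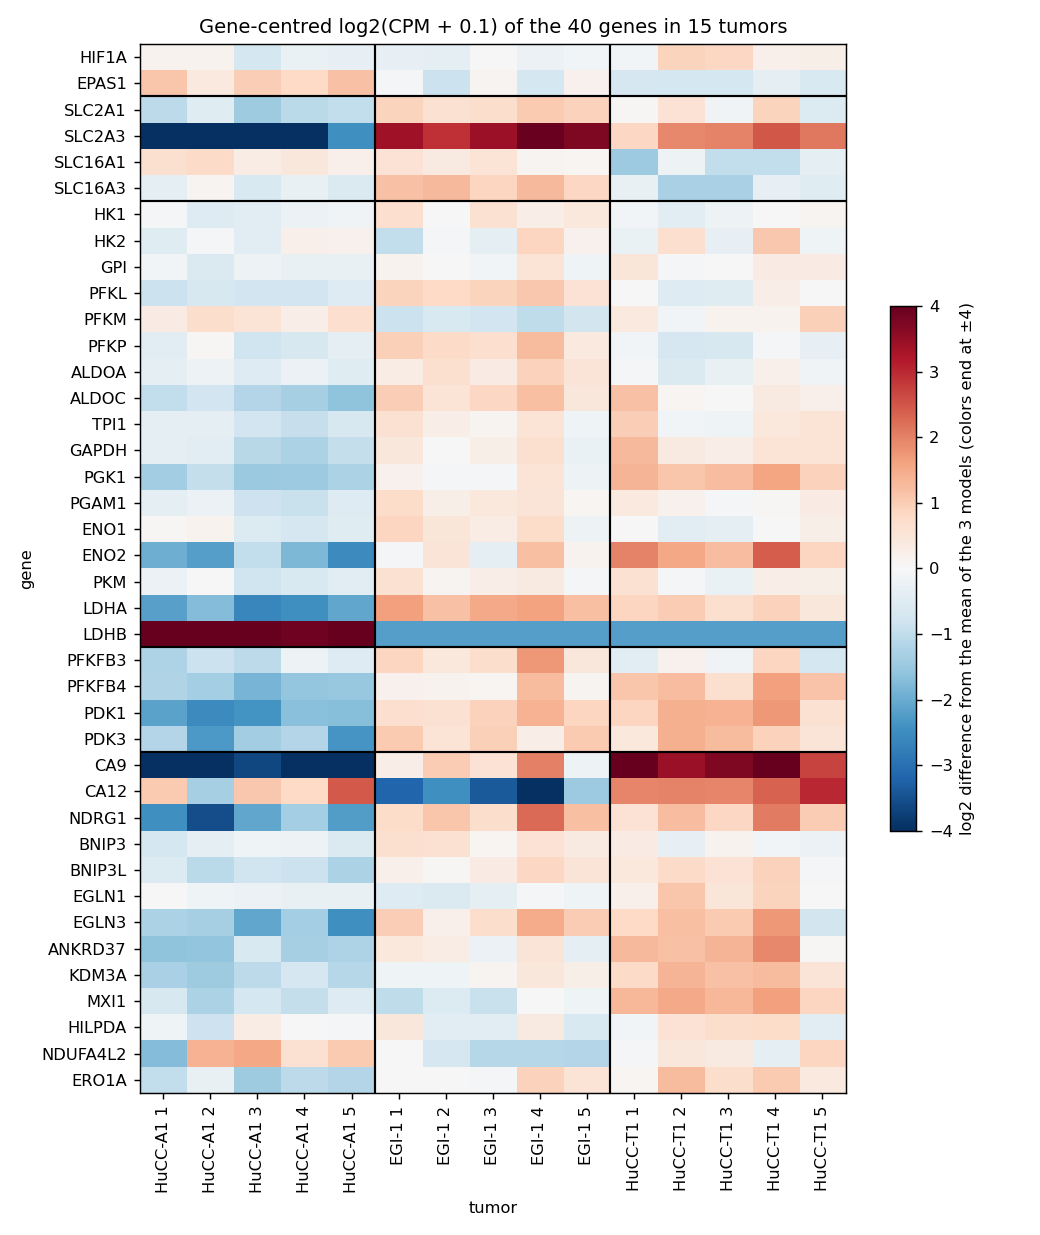
Level of each of the 40 genes (rows, grouped from top to bottom as HIF alpha subunits, transporters, enzymes, regulators and other hypoxia-induced genes) in each of the 15 tumors (columns), as log2(CPM + 0.1) minus the mean of the 3 models, in color. HuCC-A1 tumors are blue for most rows except EPAS1, SLC16A1, PFKM, LDHB, CA12 and NDUFA4L2, and in HuCC-T1 tumors red is strongest among the other hypoxia-induced genes.

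In HuCC-T1 against EGI-1, where 27.3% of all genes were higher and 25.0% lower, the groups of genes were as follows. Among the 17 enzymes 3 were higher, 6 lower and 8 not called, with a median of -0.09, counts not far from those shares. All 4 transporters were lower, with a median of -1.33. Among the 13 other hypoxia-induced genes 6 were higher, none lower and 7 not called, with a median of 0.93. Over the 26.0% of all genes lower and 29.4% higher against EGI-1, HuCC-A1 tumors had 14 enzymes lower and 2 higher (median -0.93), and 8 of the 13 other hypoxia-induced genes lower and 2 higher (median -1.21). Over the 27.2% lower and 29.1% higher against HuCC-T1, they had 10 enzymes lower, 1 higher and 6 not called (median -0.58), and 9 of the 13 lower, none higher and 4 not called (median -1.69). The difference between these groups of genes was not itself tested.

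**Figure D2:**
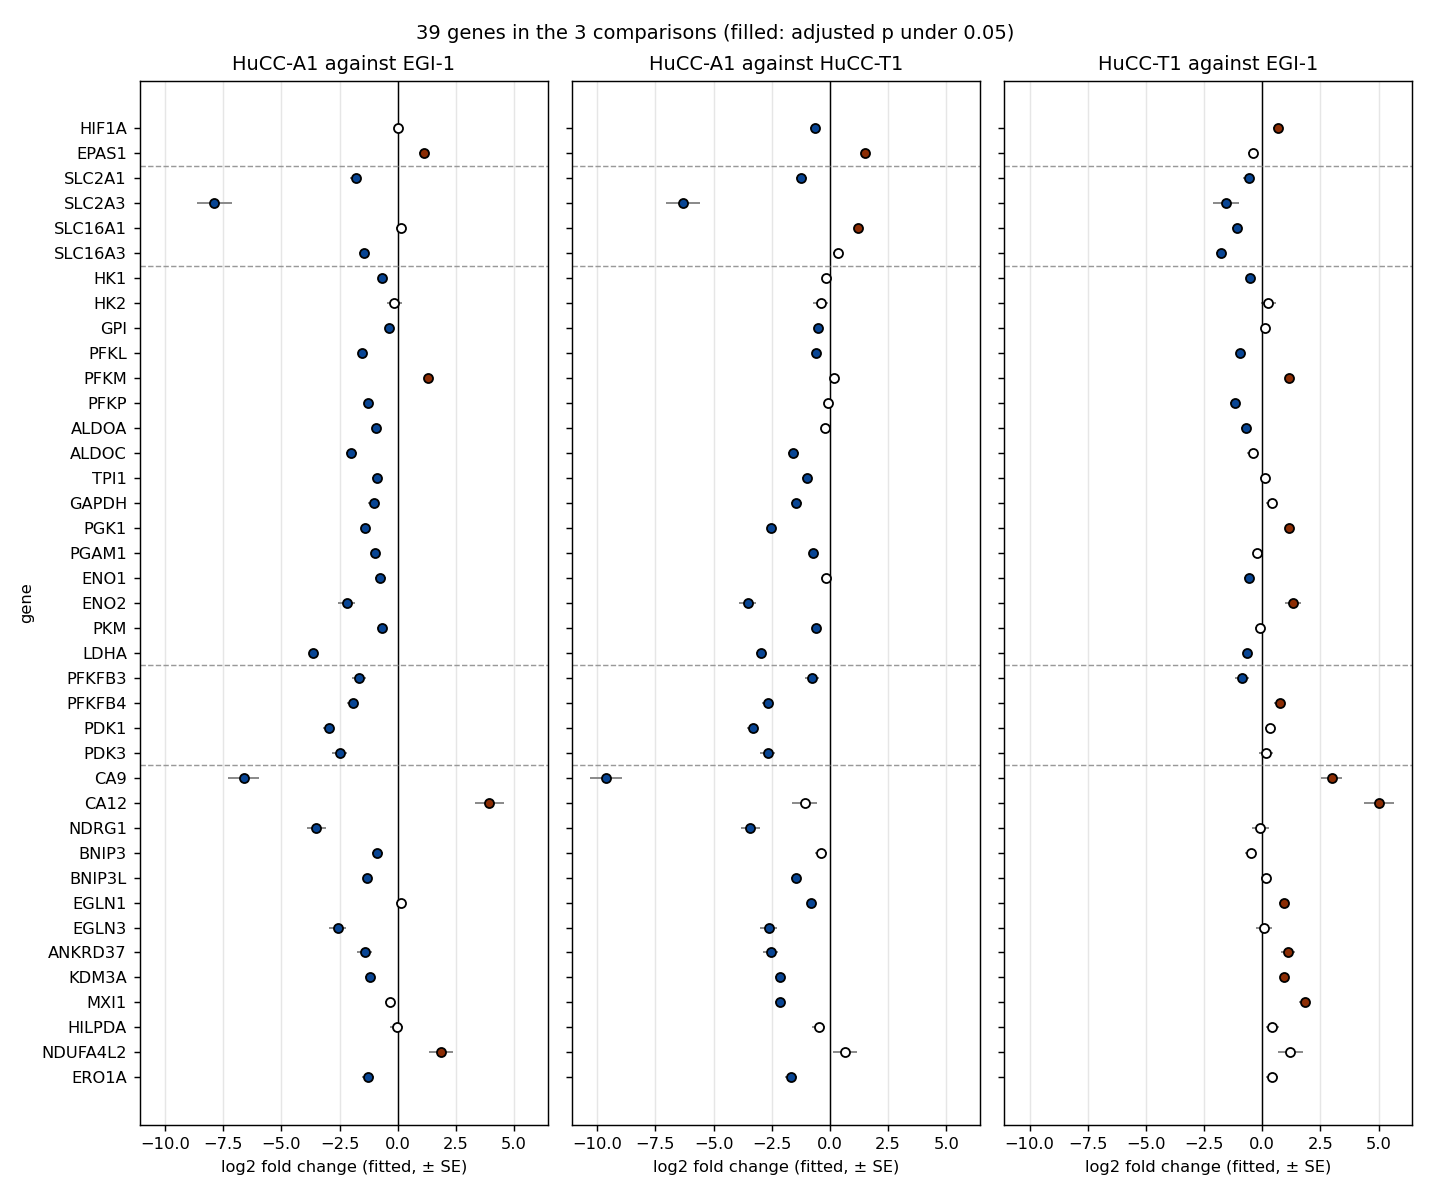
Fitted log2 fold change (x axis, bars are SE) of 39 genes (y axis, same groups and order as before, set apart by dashed lines) in the 3 comparisons, each with 5 tumors a model. Red points were higher and blue points lower at an adjusted p under 0.05, open points were not called, and LDHB is left out because 2 models had no count. In the right panel, transporters lie left of 0 and most of the other hypoxia-induced genes right of it.

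The HIF alpha subunits went apart. HIF1A (GRCh38 chr14:61695513-61748259) stood at 341, 343, 191, 257 and 246 CPM in HuCC-A1 tumors 1 to 5, at 245, 242, 311, 264 and 286 in EGI-1 and at 290, 582, 552, 359 and 366 in HuCC-T1. Tumors of all 3 models overlapped. HIF1A was higher in HuCC-T1 than in EGI-1 by 0.67 ± 0.201 (log2, SE, adjusted p = 0.00951) and lower in HuCC-A1 than in HuCC-T1 by a log2 difference of -0.64 ± 0.201 (adjusted p = 0.0117), while HuCC-A1 against EGI-1 gave 0.03 ± 0.201 (adjusted p = 0.905). EPAS1 (chr2:46293667-46386703), which encodes the HIF alpha subunit best known from endothelium and kidney cancer, stood at 340, 207, 315, 272 and 357 CPM in HuCC-A1, at 148, 87.7, 171, 96.6 and 177 in EGI-1 and at 98.1, 96.0, 97.6, 123 and 103 in HuCC-T1. Every HuCC-A1 tumor was above every tumor of the other models. The log2 difference was 1.13 ± 0.199 from EGI-1 (adjusted p = 0.000118) and 1.52 ± 0.202 from HuCC-T1 (adjusted p = 5.96e-06). As a share of both subunits by counts per kilobase of exon, EPAS1 took 43.6% ± 9.31 (SD, n = 5) in HuCC-A1, 25.8% ± 4.99 in EGI-1 and 15.4% ± 4.37 in HuCC-T1, and all 3 pairs passed (adjusted exact p 0.0159 to 0.0446). The model with the highest EPAS1 was thus the one with the lowest level of most of the target genes. EPAS1 is also an endothelial gene. The endothelial sums above were 16.0 to 31.6 CPM in HuCC-A1, 3.48 to 4.48 in EGI-1 and 13.5 to 25.3 in HuCC-T1, and their part in the EPAS1 level was not tested.

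Among the transporters, SLC2A1 (chr1:42925375-42959176) encodes the common glucose carrier GLUT1. It stood at 340, 512, 266, 338 and 356 CPM in HuCC-A1, at 1307, 1091, 1164, 1449 and 1333 in EGI-1 and at 730, 1061, 644, 1326 and 485 in HuCC-T1. EGI-1 tumors were all above HuCC-A1 tumors, with HuCC-T1 tumors spread between and across them. HuCC-A1 was lower than EGI-1 by a log2 difference of -1.81 ± 0.242 (adjusted p = 6.86e-06) and lower than HuCC-T1 by -1.23 ± 0.239 (adjusted p = 0.000301). HuCC-T1 against EGI-1 gave -0.58 ± 0.236 (adjusted p = 0.0478), a call lost in 10 of 18 alternatives, among them those without HuCC-T1 tumors 1, 3 or 5 or EGI-1 tumors 1, 3, 4 or 5, with adjusted p of 0.0520 to 0.112.

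SLC2A3 (chr12:7919230-7936275), the high-affinity glucose carrier GLUT3, was almost missing from HuCC-A1 tumors, at 0, 0.80, 0.373, 0.0966 and 3.71 CPM, against 219, 157, 223, 322 and 277 in EGI-1 and 36.9, 78.6, 82.3, 116 and 90.1 in HuCC-T1. The 3 models did not overlap. The fitted log2 difference of HuCC-A1 was -7.88 ± 0.766 from EGI-1 (adjusted p = 1.63e-07) and -6.31 ± 0.723 from HuCC-T1 (adjusted p = 1.21e-06). HuCC-A1 tumor 5 held most of the counts of its model, and without it the differences were -9.67 and -8.10. HuCC-T1 was lower than EGI-1 by -1.57 ± 0.562 (adjusted p = 0.0265, but 0.109 with DESeq2, 0.0570 without EGI-1 tumor 4 and 0.0553 without HuCC-T1 tumor 1).

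SLC16A3 (chr17:82228397-82261129) encodes MCT4, the carrier with which glycolytic cells export lactate. It stood at 222, 311, 190, 238 and 194 CPM in HuCC-A1, at 650, 715, 522, 715 and 509 in EGI-1 and at 235, 118, 119, 232 and 208 in HuCC-T1. EGI-1 tumors were all above the others, while HuCC-A1 and HuCC-T1 tumors overlapped. HuCC-T1 was lower than EGI-1 by a log2 difference of -1.77 ± 0.219 (adjusted p = 3.82e-06), the largest negative difference among transporters, enzymes and regulators in that comparison, and HuCC-A1 by -1.43 ± 0.217 (adjusted p = 2.67e-05). SLC16A1, the widely expressed lactate carrier MCT1, was the transporter that did not follow this order. It was at 118 ± 18.1 CPM (SD, n = 5) in HuCC-A1, 107 ± 16.9 in EGI-1 and 50.3 ± 17.6 in HuCC-T1, and HuCC-A1 was higher than HuCC-T1 by 1.22 ± 0.206 (adjusted p = 7.55e-05).

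**Figure D3:**
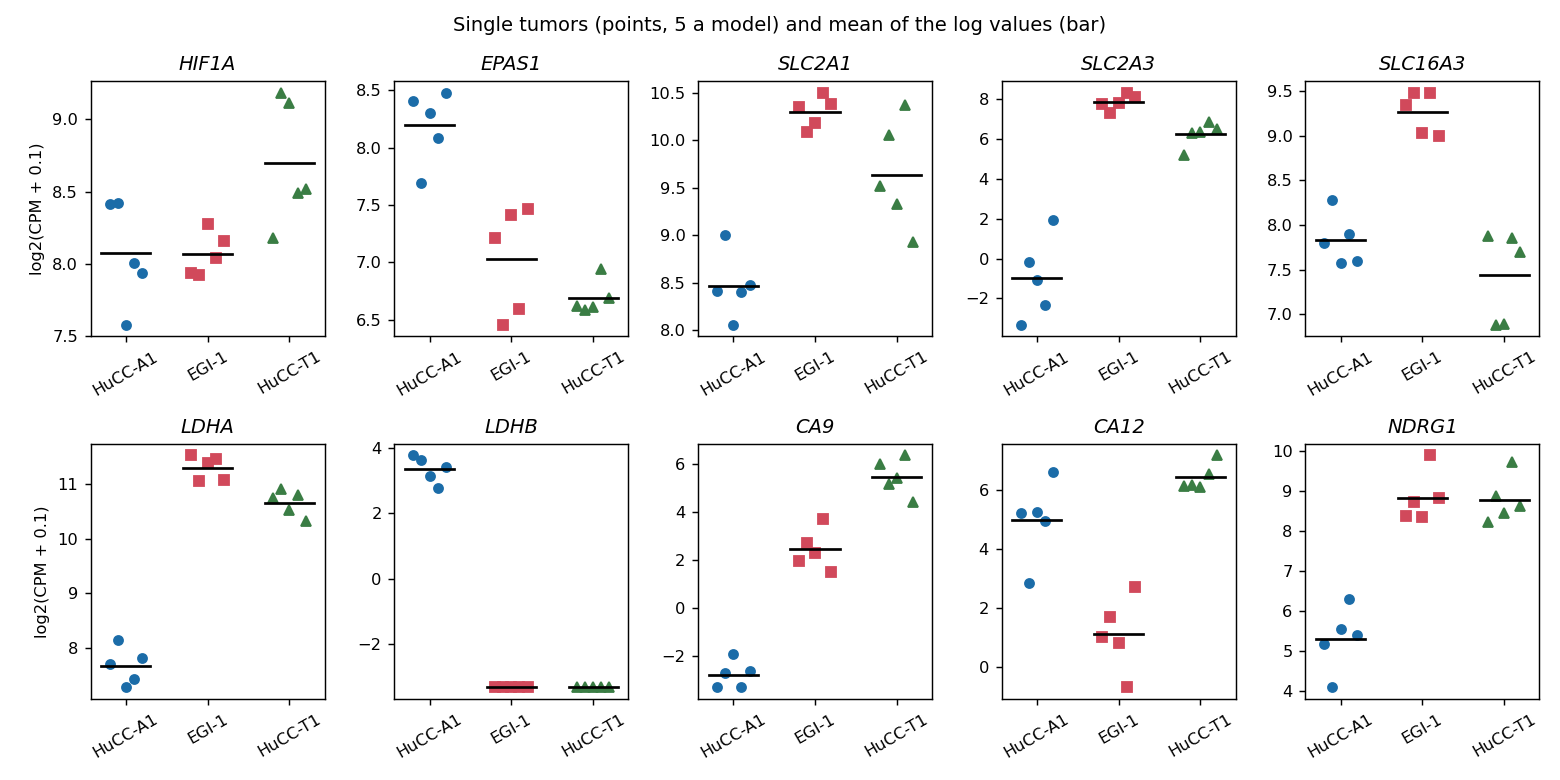
Level of 10 genes as log2(CPM + 0.1) (y axis) in the 5 tumors of each model (points, with the mean of the log values as a bar). LDHA, SLC2A1, SLC2A3, CA9 and NDRG1 are lowest in HuCC-A1, EPAS1 and LDHB are highest there, and SLC16A3 is highest in EGI-1.

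Among the enzymes with counts in every model, the largest difference between HuCC-A1 and EGI-1 was that of LDHA. LDHA (chr11:18394388-18408425), which encodes the subunit favoring lactate formation, stood at 207, 281, 154, 170 and 225 CPM in HuCC-A1, at 2965, 2134, 2689, 2843 and 2155 in EGI-1 and at 1722, 1922, 1479, 1781 and 1287 in HuCC-T1. No 2 models overlapped. HuCC-A1 was 12.3-fold lower than EGI-1 (log2 difference -3.63 ± 0.201, adjusted p = 1.79e-10) and 7.91-fold lower than HuCC-T1 (-2.98 ± 0.196, adjusted p = 1.62e-09), and HuCC-T1 was lower than EGI-1 by -0.64 ± 0.182 (adjusted p = 0.00678).

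LDHB (chr12:21635342-21757857), the subunit of oxidative tissues, went the other way. It stood at 13.5, 12.1, 8.58, 6.76 and 10.4 CPM in HuCC-A1 tumors and had no count in any of the 10 EGI-1 and HuCC-T1 tumors. Taking 3 counts in a whole model as the floor, its level in HuCC-A1 was at least 625-fold higher than in EGI-1 and at least 504-fold higher than in HuCC-T1. LDHB passed the filter on low counts only through HuCC-A1, so its calls as higher there, counted among the members above, add no support of their own. In GENCODE 29 another gene on the same strand shares 93.5% of the coding bases of LDHB and had no count in any tumor, so a read there could be counted for neither gene and the CPM of LDHB is not comparable with that of LDHA. The aldolase ALDOA also shares 93.8% of its coding bases with another gene, and that gene had 33 to 203 counts in a tumor where ALDOA had 194 to 725. The low level of ALDOA, 7.40 to 21.1 CPM over all tumors, is therefore no measure of aldolase A mRNA, and the shares of the aldolase and lactate dehydrogenase isoenzymes are not given.

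The other enzymes split by model pair. TPI1, GAPDH, PGAM1, PKM, GPI, PFKL, ALDOC, PGK1, ENO2 and LDHA were lower in HuCC-A1 than in both other models, although GPI, the isomerase of the second step, kept its call against EGI-1 (-0.38 ± 0.156, adjusted p = 0.0470) in only 12 of 18 alternatives and lost it without HuCC-A1 tumors 2, 4 or 5 or EGI-1 tumors 1 or 4 (adjusted p up to 0.142). HK1, PFKP, ENO1 and ALDOA were called lower in HuCC-A1 against EGI-1 but not against HuCC-T1, where their difference lay between -0.22 and -0.08 (adjusted p 0.315 to 0.733). The limit given above for the counts of ALDOA holds for its calls too. HK2, the inducible hexokinase, was called in no comparison, at 64.3 ± 14.2 CPM in HuCC-A1, 70.8 ± 33.7 in EGI-1 and 84.7 ± 39.3 in HuCC-T1. PFKM, the muscle phosphofructokinase, was higher than in EGI-1 both in HuCC-A1 (1.32 ± 0.180, adjusted p = 8.29e-06) and in HuCC-T1 (1.15 ± 0.180, adjusted p = 4.31e-05).

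PGK1, the first step that makes ATP, and ENO2, the neuronal enolase, were higher in HuCC-T1 than in both other models. PGK1 was at 179 ± 29.2 CPM in HuCC-A1, 469 ± 107 in EGI-1 and 1039 ± 180 in HuCC-T1, with no overlap between models. ENO2 was at 17 ± 7.70, 78.5 ± 36.3 and 197 ± 84.8 CPM, and here HuCC-T1 and EGI-1 overlapped (lowest HuCC-T1 tumor 108, highest EGI-1 tumor 138 CPM). HuCC-T1 exceeded EGI-1 by 1.15 ± 0.175 for PGK1 (adjusted p = 3.38e-05) and by 1.32 ± 0.340 for ENO2 (adjusted p = 0.00340), where ENO1, the common enolase, was lower by -0.57 ± 0.224 (adjusted p = 0.0417, lost in 9 of 18 alternatives, among them those without EGI-1 tumors 1, 2 or 4 or HuCC-T1 tumors 1 to 4, with adjusted p up to 0.113). PFKL, PFKP, HK1, ALDOA and LDHA were the other enzymes that were lower in HuCC-T1, by -0.97, -1.18, -0.51, -0.71 and -0.64, with the same limit on ALDOA. PGK1, ENO2 and PFKM were the 3 that were higher.

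Pairs of isoenzymes were also compared within each tumor, by counts per kilobase of exon, with exact two-sided permutation tests of 5 against 5 tumors, 30 in all. The smallest p they can give is 0.00794, adjusted 0.0159. The 30 include the aldolase and lactate dehydrogenase shares, which are not given, and their p-values entered the adjustment of the others. LDHB had no count in EGI-1 and HuCC-T1 tumors, so the outcome of its tests was fixed. PFKM took 13.6% ± 1.57 (SD, n = 5) of phosphofructokinase in HuCC-A1, 2.45% ± 0.614 in EGI-1 and 10.4% ± 2.63 in HuCC-T1, and EGI-1 did not overlap either model (exact p = 0.00794, adjusted 0.0159, both). ENO2 took 1.57% ± 0.934 of enolase in HuCC-A1, 3.96% ± 1.5 in EGI-1 and 13.1% ± 4.71 in HuCC-T1, where HuCC-T1 did not overlap the others (exact p = 0.00794, adjusted 0.0159), while HuCC-A1 and EGI-1 missed the threshold after adjustment (exact p = 0.0317, adjusted 0.0529). SLC2A3 took 0.209% ± 0.331 of both glucose carriers in HuCC-A1, 12.5% ± 1.85 in EGI-1 and 7.36% ± 3.42 in HuCC-T1, with HuCC-A1 below both others (exact p = 0.00794, adjusted 0.0159) and HuCC-T1 against EGI-1 at an adjusted exact p of 0.0529. HK2 took 28.0% ± 4.95, 21.2% ± 9.37 and 30.6% ± 10.2 of both hexokinases, and no pair of models passed (adjusted exact p 0.249 to 0.616).

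**Figure D4:**
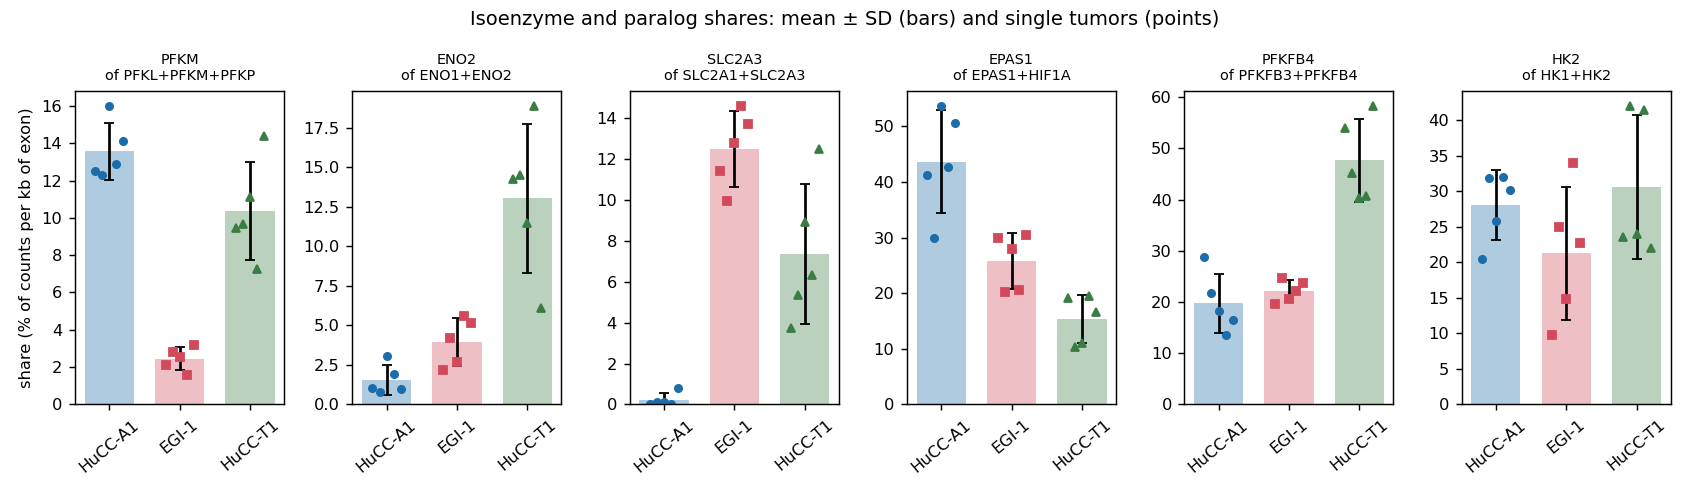
Share of 1 gene in its pair or trio (y axis, percent of counts per kilobase of exon), as bars (mean), error bars (SD) and points (5 tumors a model), each panel with its own axis from 0. PFKM is lowest in EGI-1 at 2.45%, ENO2 and PFKFB4 are highest in HuCC-T1 at 13.1% and 47.7%, SLC2A3 is near 0 in HuCC-A1 and EPAS1 is highest there at 43.6%.

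All 4 regulators were lower in HuCC-A1 than in each of the other models, with medians of -2.21 from EGI-1 and -2.68 from HuCC-T1. Of all genes, 26.0% and 27.2% were lower in these comparisons, and 4 genes are few to set beside those shares. PDK1, a kinase that closes pyruvate dehydrogenase under hypoxia, was at 6.70 ± 1.86 CPM in HuCC-A1, 52.8 ± 12.3 in EGI-1 and 66.9 ± 20.2 in HuCC-T1, and the log2 difference of HuCC-A1 was -2.97 ± 0.244 and -3.32 ± 0.248 (adjusted p = 2.17e-08 and 7.47e-09). PDK3 of the same family was lower by -2.50 ± 0.333 and -2.68 ± 0.335, but in HuCC-A1 it stood at only 0.801 CPM. That level rested on 123 counts over the 5 tumors, with 9 in the lowest. The bifunctional enzymes PFKFB3 and PFKFB4 set the level of the activator of phosphofructokinase, and between HuCC-T1 and EGI-1 they differed in opposite directions. HuCC-T1 against EGI-1 was lower for PFKFB3 by -0.87 ± 0.300 (adjusted p = 0.0220, but 0.0949, 0.0591 and 0.0545 without EGI-1 tumor 4, HuCC-T1 tumor 1 or HuCC-T1 tumor 5) and higher for PFKFB4 by 0.76 ± 0.235 (adjusted p = 0.0119). PFKFB4 took 47.7% ± 8.07 of both in HuCC-T1, against 22.1% ± 2.11 in EGI-1 and 19.8% ± 5.82 in HuCC-A1, with no overlap between HuCC-T1 and the others (exact p = 0.00794, adjusted 0.0159). PFKFB3 in HuCC-A1 against HuCC-T1 (-0.79 ± 0.301, adjusted p = 0.0332) was lost without any of HuCC-A1 tumors 1, 2 or 3 or HuCC-T1 tumors 2 or 4, with adjusted p of 0.0540 to 0.130.

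CA9 and CA12 encode carbonic anhydrases of the cell surface, which make bicarbonate from carbon dioxide outside the cell, and CA9 is a widely used marker of hypoxic tumor cells. CA9 (chr9:35673856-35681159) stood at 0, 0.05, 0.160, 0 and 0.0614 CPM in HuCC-A1, at 3.84, 6.53, 4.77, 13.2 and 2.77 in EGI-1 and at 63.7, 35.7, 43.2, 82.6 and 21.2 in HuCC-T1. The models were in full order with no overlap, and HuCC-A1 rested on 9 counts over its 5 tumors, 6 of them in tumor 3. The log2 difference was -6.62 ± 0.667 for HuCC-A1 against EGI-1 (adjusted p = 2.55e-07), -9.61 ± 0.685 for HuCC-A1 against HuCC-T1 (adjusted p = 4.24e-09) and 2.99 ± 0.444 for HuCC-T1 against EGI-1 (adjusted p = 2.6e-05). Without HuCC-A1 tumor 3 the first 2 were -7.68 and -10.69. A gene on the other strand shares 38.5% of the exon bases of CA9.

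CA12 (chr15:63321378-63382161) did not follow CA9. It stood at 37.8, 7.15, 38.5, 31.4 and 98.6 CPM in HuCC-A1, at 1.92, 3.21, 1.68, 0.524 and 6.58 in EGI-1 and at 71.1, 72.3, 69.9, 94.1 and 146 in HuCC-T1. EGI-1 tumors were below all others, so that CA12 was higher than in EGI-1 by 3.94 ± 0.612 in HuCC-A1 (adjusted p = 3.38e-05) and by 5.02 ± 0.641 in HuCC-T1 (adjusted p = 5.21e-06), and by 4.54 and 5.63 without EGI-1 tumor 5. HuCC-A1 against HuCC-T1 gave -1.08 ± 0.540 (adjusted p = 0.0971), and -1.66 without HuCC-A1 tumor 5 (adjusted p = 0.0145). Within models the carbonic anhydrases ranked some tumors apart and others alike. EGI-1 tumor 4 had the highest CA9 and the lowest CA12 of its model, and HuCC-T1 tumor 5 the lowest CA9 and the highest CA12, while HuCC-T1 tumor 4 had the highest CA9 and the next to highest CA12.

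NDRG1, a stress-induced gene long used as a hypoxia marker, stood at 36.1, 16.8, 46.7, 78.4 and 41.8 CPM in HuCC-A1, at 331, 426, 325, 953 and 456 in EGI-1 and at 298, 468, 353, 843 and 399 in HuCC-T1. HuCC-A1 was below every other tumor, by -3.50 ± 0.409 from EGI-1 (adjusted p = 1.47e-06) and -3.42 ± 0.408 from HuCC-T1 (adjusted p = 1.87e-06). HuCC-T1 and EGI-1 differed by -0.08 ± 0.370 (adjusted p = 0.876). EGLN3, a hypoxia-induced prolyl hydroxylase that acts back on HIF alpha, had the same pattern at 30 ± 9.84, 178 ± 56.6 and 187 ± 92.1 CPM in HuCC-A1, EGI-1 and HuCC-T1. BNIP3L, a mitophagy receptor, and ERO1A, an oxidase of protein folding, were also lower in HuCC-A1 than in both other models and not called between these.

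The 6 genes that were higher in HuCC-T1 than in EGI-1 were CA9, CA12, EGLN1, ANKRD37, KDM3A and MXI1. The oxygen sensor EGLN1 was higher by 0.93 ± 0.187 (adjusted p = 0.000486), the histone demethylase KDM3A by 0.94 ± 0.184 (adjusted p = 0.000379), and MXI1, an antagonist of MYC, by 1.82 ± 0.216 (adjusted p = 2.34e-06), each with no overlap between the models. ANKRD37 was higher by 1.12 ± 0.301 (adjusted p = 0.00468), and a gene on the other strand shares 35.2% of its exon bases. HILPDA, which blocks lipid breakdown, was called in no comparison. BNIP3 stood at only 1.35 to 3.57 CPM over all tumors, and its 39 annotated pseudogenes held 32.5% to 221% of its counts in a tumor, so its value is uncertain. NDUFA4L2, a hypoxia-induced mitochondrial protein, was at 0.307 to 0.824 CPM in EGI-1 and 0.177 to 2.61 CPM in HuCC-A1, which was called higher (1.86 ± 0.533, adjusted p = 0.00659) although both ranges overlap.

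In single tumors, the mean of gene-centered log2(CPM + 0.1) over the 17 enzymes lay between -0.54 and -0.18 in HuCC-A1, between -0.01 and 0.53 in EGI-1 and between -0.09 and 0.40 in HuCC-T1, so that EGI-1 and HuCC-T1 overlapped. Over the 13 other hypoxia-induced genes it lay between -1.25 and -0.76, between -0.31 and 0.26 and between 0.61 and 1.45, and the models did not overlap. The gap between EGI-1 and HuCC-T1 rested on CA12. Without it, an alternative chosen after seeing the data, the mean over the other 12 genes was -0.05 to 0.69 in EGI-1 and 0.41 to 1.37 in HuCC-T1, and these overlapped, with EGI-1 tumor 4 (0.69) above HuCC-T1 tumor 5 (0.41). HuCC-A1 tumors, at -1.37 to -0.91, stayed below both. LDHB raised the first mean in HuCC-A1. With ALDOA, LDHB and BNIP3 left out, a choice made after seeing the data, the enzyme mean was -0.86 to -0.50 in HuCC-A1, 0.11 to 0.69 in EGI-1 and 0.07 to 0.61 in HuCC-T1.

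**Figure D5:**
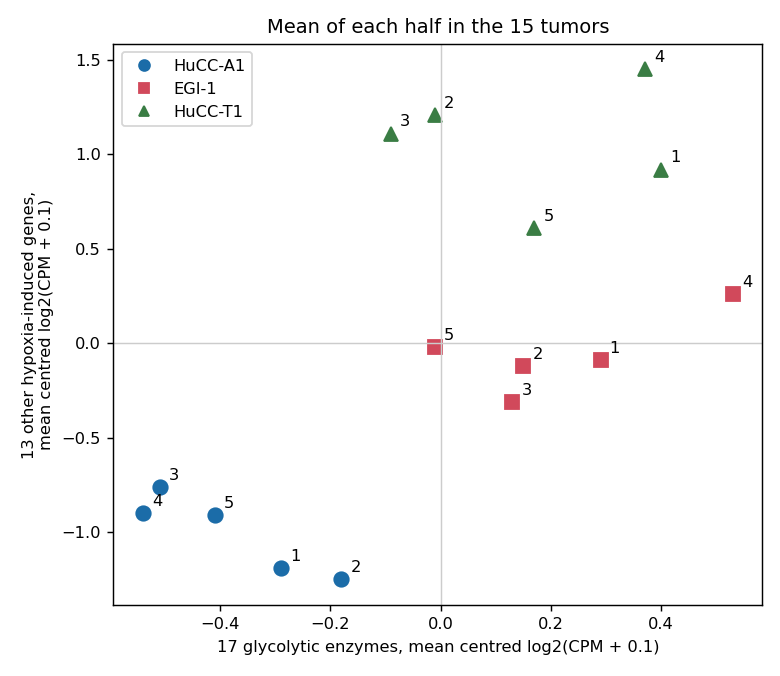
Each point is 1 tumor (number beside it, 5 a model), placed by its mean centered log2(CPM + 0.1) over 17 glycolytic enzymes (x axis) and over 13 other hypoxia-induced genes (y axis). HuCC-T1 and EGI-1 tumors share the range of the x axis and part on the y axis, where HuCC-T1 starts at 0.61 and EGI-1 ends at 0.26, a gap that closes when CA12 is left out (0.41 and 0.69).

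Tumors of a model differed too. EGI-1 tumor 4 was the highest of its model for 9 of the 13 other hypoxia-induced genes and for 9 of the 16 enzymes with a count, while EGI-1 tumor 5 was the lowest for 10 of these 16 but for only 4 of the 13. HuCC-T1 tumor 4 was the highest for 7 of 13 and for 6 of 16, and HuCC-T1 tumor 5 the lowest for 8 of 13 and for 3 of 16. HuCC-A1 tumor 2 was the highest for 10 of 17 enzymes and the lowest for 5 of 13 other hypoxia-induced genes. HuCC-T1 tumor 1 was the highest for 6 of 16 enzymes and for 1 of 13. Both groups of genes ranked high in EGI-1 tumor 4 and HuCC-T1 tumor 4 but not in HuCC-A1 tumor 2 and HuCC-T1 tumor 1, which is a description of single tumors without a test. HuCC-T1 tumor 4 also had the lowest fibroblast sum of its model, 99.9 CPM.

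Genes around the set are given by lists, to be read against the shares of all genes called, which were 29.4% higher and 26.0% lower in HuCC-A1 against EGI-1, 29.1% and 27.2% in HuCC-A1 against HuCC-T1, and 27.3% and 25.0% in HuCC-T1 against EGI-1. Of 38 further hypoxia-induced genes that were tested, HuCC-A1 had 18 lower and 11 higher than EGI-1 (median -0.74) and 23 lower and 5 higher than HuCC-T1 (median -0.88), and HuCC-T1 had 19 higher and 8 lower than EGI-1 (median 0.64). The range of single genes was wide: IGFBP3, a carrier of insulin-like growth factors, was at 857 ± 296 CPM (SD, n = 5) in HuCC-A1 and 1116 ± 316 in HuCC-T1 but at 0.0336 ± 0.0533 in EGI-1. STC2, a secreted glycoprotein, was at 0.0161 ± 0.0231 CPM in HuCC-A1 and 7.14 ± 6.09 in EGI-1. PPP1R3C, which targets a phosphatase to glycogen, was lower in HuCC-A1 than in HuCC-T1 (1.26 ± 0.715 against 27.7 ± 10.8 CPM, -4.45 ± 0.594, adjusted p = 6.61e-06), as was TCAF2 (-4.84 ± 0.559, adjusted p = 1.33e-06). VLDLR, a lipoprotein receptor, was at 22.4 ± 6.04 CPM in HuCC-T1 and 0.164 ± 0.0645 in EGI-1 (7.03 ± 0.349, adjusted p = 7.56e-11).

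Among 13 other isoenzymes tested, 3 were higher and 3 lower in HuCC-A1 against EGI-1, 3 higher and 4 lower against HuCC-T1, and 1 was higher and 1 lower in HuCC-T1 than in EGI-1, which is near or below the 25.0% to 29.4% of all genes called in a direction. The hexokinase relative HKDC1 was at 0.716 ± 0.420 CPM in HuCC-A1, 66.3 ± 18.6 in EGI-1 and 64.5 ± 8.32 in HuCC-T1 (-6.50 ± 0.440 and -6.46 ± 0.439, adjusted p = 1.96e-09 and 2.39e-09). LDHD, which oxidizes D-lactate in mitochondria, was at 12.6 ± 4.09, 1.15 ± 0.424 and 1.89 ± 0.387 CPM (3.46 ± 0.314 and 2.74 ± 0.303, adjusted p = 6.97e-08 and 8.11e-07). HuCC-A1 tumors thus had the least LDHA, HKDC1 and SLC2A3 and the most LDHB and LDHD. The ADP-dependent glucokinase ADPGK was higher in HuCC-T1 than in EGI-1 by 0.76 ± 0.130 (adjusted p = 0.000112).

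Of 17 HIF pathway regulators tested, 2, 3 and 2 were higher and 5, 5 and 4 lower in the 3 comparisons, HuCC-A1 against EGI-1, HuCC-A1 against HuCC-T1 and HuCC-T1 against EGI-1, where all genes gave 27.3% to 29.4% higher and 25.0% to 27.2% lower. The lower counts are near those shares. CITED2, which competes with HIF for its coactivators, had no count in any HuCC-A1 tumor and stood at 57.2 ± 13 CPM in EGI-1 and 30.2 ± 7.0 in HuCC-T1, at least 2851-fold and 1503-fold above a floor of 3 counts over the HuCC-A1 group. CREBBP, one of those coactivators, was higher in HuCC-T1 than in EGI-1 by 0.82 ± 0.158 (adjusted p = 0.000314), and ARNT2, a partner of HIF alpha, was higher in HuCC-A1 than in HuCC-T1 by 2.30 ± 0.525 (adjusted p = 0.00124).

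Genes of mitochondrial fuel use were called in both directions, as were all genes (29.4% higher and 26.0% lower against EGI-1, 29.1% and 27.2% against HuCC-T1). Of 29 genes of pyruvate entry and the citrate cycle, 12 were higher and 9 lower than in EGI-1 (median 0.13), and 15 were higher and 4 lower than in HuCC-T1 (median 0.36), while HuCC-T1 had 4 higher and 12 lower than EGI-1 (median -0.28, all genes 27.3% higher and 25.0% lower). PDK4, a pyruvate dehydrogenase kinase of fasting and fat oxidation, ran against PDK1 at 33.4 ± 6.16 CPM in HuCC-A1, 2.42 ± 0.864 in EGI-1 and 1.03 ± 0.371 in HuCC-T1, higher in HuCC-A1 by 3.78 ± 0.303 and 5.02 ± 0.327 (adjusted p = 1.54e-08 and 1.49e-09). DLAT, a core subunit of pyruvate dehydrogenase, was lower in HuCC-A1 than in EGI-1 by -1.83 ± 0.136 (adjusted p = 6.2e-09), SDHD of succinate dehydrogenase lower than in HuCC-T1 by -1.83 ± 0.158 (adjusted p = 4.44e-08), and the pyruvate carrier MPC1 lower in HuCC-T1 than in EGI-1 by -1.42 ± 0.167 (adjusted p = 2.12e-06).

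The side paths of glucose were small lists. Of 7 pentose phosphate genes, 3 were lower and none higher in HuCC-A1 against EGI-1, 3 lower and 1 higher in HuCC-T1 than in EGI-1, and 2 lower and 1 higher in HuCC-A1 than in HuCC-T1, too few to set beside the 25.0% to 27.2% of all genes that were lower. Transaldolase TALDO1 was at 306 ± 56.9 CPM in EGI-1, 110 ± 16.1 in HuCC-A1 and 120 ± 32.6 in HuCC-T1, lower than in EGI-1 by -1.48 ± 0.182 and -1.35 ± 0.181 (adjusted p = 2.61e-06 and 8.94e-06). Of 15 genes of gluconeogenesis and glycogen, 2 were higher and 5 lower in HuCC-A1 than in EGI-1, 3 higher and 5 lower than in HuCC-T1, and 3 higher and 7 lower in HuCC-T1 than in EGI-1, where all genes gave 26.0%, 27.2% and 25.0% lower. FBP1, which runs the phosphofructokinase step backwards, was at 79.6 ± 10.3 CPM in EGI-1, 30.9 ± 9.58 in HuCC-T1 and 7.95 ± 4.11 in HuCC-A1, and all 3 differences passed (log2 -3.32 ± 0.298, -1.95 ± 0.284 and -1.37 ± 0.276, the last for HuCC-T1 against EGI-1). Of 15 other transporters, 4 were higher and 2 lower, 6 higher and 3 lower, and 4 higher and 7 lower in the 3 comparisons in the same order, beside the same shares of all genes. SLC16A7, the lactate and pyruvate carrier MCT2, was at 27.9 ± 7.32 CPM in HuCC-A1, 0.00605 ± 0.0135 in EGI-1 and 7.69 ± 3.54 in HuCC-T1, and SLC2A10, a glucose carrier, at 19.7 ± 8.20, 0.0214 ± 0.0336 and 53.6 ± 11.6 CPM.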

How the data were processed

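Total RNA had been sequenced from 15 xenografts (5 mice a model, grouped by the sample labels) of mice given PBS. The authors deposited raw counts per gene, made from directional libraries per the labels. The submitters' processing notes name CASAVA, HISAT2 2.0.5, featureCounts 1.5.0-p3 and GRCh38. The strand setting of the counting, its annotation release and the handling of mouse reads were not given in those notes, the labels or the methods, nor was a batch. No 2 tumors of a model were alike within sampling noise (smallest chi-square per degree of freedom 24.2).

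The 40 genes and all lists were chosen with earlier results of these data known. Genes were fitted with edgeR 4.0.16 in R 4.3.3 on all 15 tumors (TMM, filterByExpr, quasi-likelihood F test, 12 residual degrees of freedom), with Benjamini-Hochberg adjustment over 21019 tested genes and 0.05 as the threshold. All 40 genes passed the filter. Exon lengths and shared bases came from GENCODE 29. Values of every tumor are given for HIF1A, EPAS1, CA9, SLC2A1, LDHA and, for each comparison, the 2 called genes of largest difference among enzymes, regulators and transporters and the 2 among the other hypoxia-induced genes (mean log2 CPM no lower than 1), and of each pathway list at most 2 called genes by the same rule. Other genes of the set were given values after these were seen. Floors cover counting error only. A ± after a CPM value is the SD over the tumors of that model, so it includes the variation between tumors. Alternatives were RLE factors, other filters, DESeq2 1.42.0, limma-voom (limma 3.58.1), 10 tumors only, a replicate block, no mitochondrial genes and leaving out each tumor. On counts simulated for HuCC-A1 against EGI-1 with 21019 genes, 20 of 100 planted 2-fold and 75 of 100 planted 4-fold changes were called, and 4 of 20180 unchanged genes. The planted changes were few, where 29.4% of genes were called higher and 26.0% lower in the data, so these rates do not carry over to the data. Figures were drawn with matplotlib.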

Additional observations from a re-analysis of the deposited data

Results flagged for a closer look

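In 3 of 118 sets of 5 tumors, 1 tumor was far from the rest of its model on the log2 scale, by Dixon's criterion at the 95% level (ratio above 0.71). Chance flags about 1 in 20, or 5.9 of 118. GAPDH stood at 7201 CPM in HuCC-T1 tumor 1, against 3550 to 4291 CPM in the other HuCC-T1 tumors. PFKFB4 stood at 55.8 CPM in EGI-1 tumor 4, against 24.9 to 26.2 CPM in the other EGI-1 tumors, and this tumor was also the highest of its model for CA9 and NDRG1. NDUFA4L2 stood at 0.177 CPM in HuCC-A1 tumor 1, against 1.32 to 2.61 CPM in the other HuCC-A1 tumors.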

How the results depend on the processing

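With at least 10 counts in each library, 13786 genes were tested and the members called higher in HuCC-A1 against EGI-1 went from 5 to 3, and the median of the other hypoxia-induced genes in HuCC-T1 against EGI-1 moved from 0.93 to 0.47, as LDHB, PDK3, SLC2A3, CA9 and NDUFA4L2 no longer entered. The enzyme mean of HuCC-A1 tumors moved from -0.39 to -0.71 with ALDOA, LDHB and BNIP3 left out, and the mean of the other hypoxia-induced genes in EGI-1 tumors changed sign, from -0.06 to 0.19, with CA12 left out, both chosen after seeing the data. No other count of called members moved by more than 1.5 times and no other median beyond the spread between tumors, and no call changed direction. With 1 tumor left out, the members lower in HuCC-T1 than in EGI-1 ranged from 8 to 11. Precision is limited most for genes of few counts, such as CA9 and SLC2A3 in HuCC-A1. GPI in HuCC-A1 against EGI-1, PFKFB3 in 2 comparisons, and ENO1, SLC2A1 and SLC2A3 in HuCC-T1 against EGI-1 lost their call in 3 to 10 alternatives. CA12 and HILPDA in HuCC-A1 against HuCC-T1, and ALDOC, NDUFA4L2 and EPAS1 in HuCC-T1 against EGI-1, gained one in 1 to 4 alternatives. Replicate numbers did not pair the tumors: of 15 same-numbered pairs 4 had deviations correlated above 0.1, and 6 of 15 tumors were closest to one with their own number. With the replicate block, which moved the calls of ENO1 (lost) and CA12 (gained) and no other, 29 members were lower and 5 higher in HuCC-A1 against EGI-1, 27 and 3 against HuCC-T1, and 10 lower and 11 higher in HuCC-T1 than in EGI-1.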
